A study of Rattus norvegicus with 25 samples.

Results

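Genes of smooth and striated muscle were followed in epithelium taken from the esophagus of male F344 rats. The list held 45 genes by name, 14 of smooth muscle and 31 of striated muscle. A listed gene was taken where a probe named through its RefSeq accession was well above background on at least 5 of 25 arrays. That left 39 genes, 12 smooth and 27 striated, among 12343 tested and 15443 named on the array. Synpo2, Pgm5, Ttn, Neb, Ryr1 and Ldb3 had no named probe. All 25 arrays detected 38 of the 39, and the probe used for Myh3 was detected on 24.

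Total RNA from 25 rats was hybridised to 1-colour Agilent arrays, 1 array per rat and 5 rats per group. Control rats ate a normal diet and were given no carcinogen. NMBA rats ate the normal diet and were treated with the nitrosamine N-nitrosomethylbenzylamine (NMBA), a carcinogen that induces tumours of the rat esophagus. NMBA was combined with alpha-tocopherol, delta-tocopherol or gamma-enriched tocopherol in the remaining groups. Tocopherols are forms of vitamin E, and they differ in the methyl groups on their ring. The age of the rats and the dose, route and length of treatment were not given in the labels, so it is not known whether the tocopherols were given at matched doses. Gene levels are log2 signals relative to the 75th percentile of the same array, and a difference of 1 log2 unit is a doubling of signal.

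In smooth muscle, the myosin heavy chain Myh11 pulls on actin filaments built from Acta2 and Actg2 once the kinase Mylk has phosphorylated the light chain Myl9. In striated muscle, myosin heavy chains such as Myh1, Myh2 and Myh4 form the thick filaments of the sarcomere, and actin, tropomyosin and troponin form the thin filaments. The rat esophagus has a thin smooth muscle layer under its epithelium, the muscularis mucosae, and an outer coat of striated muscle, so a preparation of pure epithelium would hold little of either. Myh3 is the embryonic myosin heavy chain, made in developing and regenerating fibres. Serum response factor with its partner Myocd binds CArG boxes in promoters of muscle genes, and the MyoD family binds E-boxes.

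RefSeq promoters on the GRCr8 assembly were found for 36 of the 45 listed genes, and the 250 bases before each gene start were searched on both strands. No promoter was found for the smooth genes Myh11, Tagln, Lmod1, Myl9 and Myocd or the striated genes Tnnt3, Tnnc1, Myot and Tcap. A CArG box in its strict form (CCWWWWWWGG, with W for A or T) was found in the windows of Acta1, Myh4 and Ldb3, 3 of 27 striated genes. It was found in 0 of the 9 smooth genes searched and in 1.5% of 33469 promoters of the same length. Boxes that depart from this form or lie outside the windows were not searched for. A MEF2 site was found for Myh1, Myh4, Ttn and Myoz1, 4 of 27 striated genes, in 0 of 9 smooth genes and in 2.96% of all. An E-box (CANNTG) was found in 21 of 27 striated genes, 7 of 9 smooth genes and 65.5% of all promoters. The matches are a description of these windows and not evidence of binding. The windows of Acta1 and Myh4, the measured striated genes with a CArG box, are shown with that box in capitals, and the window of Myh3 with its E-box in capitals. Acta1 lies on the minus strand at chr19:68784195-68784444, Myh4 on the plus strand at chr10:52421898-52422147 and Myh3 on the plus strand at chr10:52268935-52269184. The capitals begin 94 bases before the start of Acta1, 118 before that of Myh4 and 192 before that of Myh3.
Acta1: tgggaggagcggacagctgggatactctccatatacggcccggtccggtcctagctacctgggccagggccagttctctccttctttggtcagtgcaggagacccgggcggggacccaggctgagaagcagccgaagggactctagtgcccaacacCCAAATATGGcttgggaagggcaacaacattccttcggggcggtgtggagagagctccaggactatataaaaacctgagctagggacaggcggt
Myh4: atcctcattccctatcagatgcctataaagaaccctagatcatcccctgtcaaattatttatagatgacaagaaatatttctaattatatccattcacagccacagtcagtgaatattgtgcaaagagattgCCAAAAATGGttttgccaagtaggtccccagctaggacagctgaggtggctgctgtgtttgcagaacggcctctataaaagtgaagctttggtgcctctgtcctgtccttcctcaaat
Myh3: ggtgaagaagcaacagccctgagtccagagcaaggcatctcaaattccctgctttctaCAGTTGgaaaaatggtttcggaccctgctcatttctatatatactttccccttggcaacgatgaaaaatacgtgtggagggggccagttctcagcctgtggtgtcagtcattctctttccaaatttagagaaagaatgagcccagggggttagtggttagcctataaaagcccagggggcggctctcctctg

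Both kinds of muscle RNA were present in the epithelial preparations of all 25 rats. The mean signal lay above the array's 75th percentile for 10 of 12 smooth genes and 23 of 27 striated genes, against 3924 of 12343 genes tested. Among markers of squamous epithelium, the labelled tissue, 18 of 21 were measured, each on all 25 arrays, and 16 lay above the 75th percentile. The arrays sat on 4 slides that held the groups unevenly: the NMBA rats shared a slide only with Control rats, so no slide held NMBA rats together with a tocopherol group. Control rat 1 was the only Control rat on a slide with tocopherol rats. With slide as a fixed block, differences of the tocopherol groups from Control or NMBA therefore rest on that rat. Between 70.6% and 79.8% of spots per array were well above background and 0 spots were saturated.

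**Figure D1:**
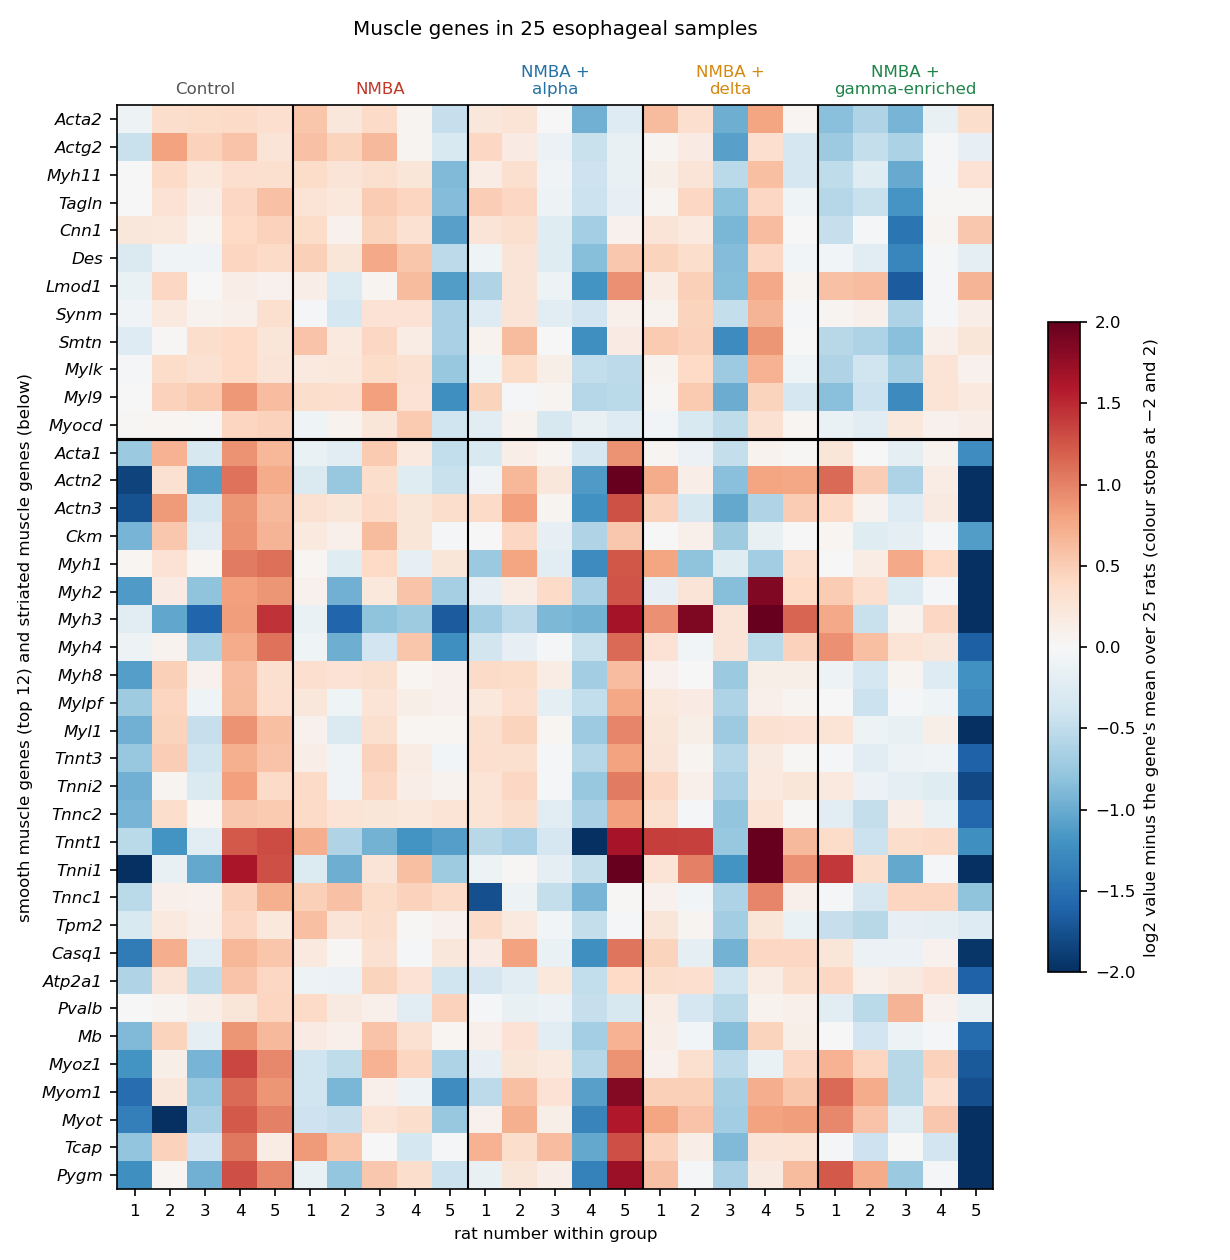
Heat map of 39 muscle genes (rows, 12 smooth above the line and 27 striated below) in 25 rats (columns, by group), coloured by the log2 value minus the gene's own mean over the 25 rats, with the colour stopping at −2 and 2. Gamma-enriched rat 5 is blue through nearly all striated genes and near 0 in smooth genes, gamma-enriched rat 3 is blue in smooth genes, and Myh3 is red in delta rats.

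The smooth muscle genes varied mostly between rats of the same group. Their SD over the 25 rats had a median of 0.49 log2 units, from 0.27 in Myocd to 0.65 in Lmod1, against 0.35 for all genes tested. Differences between groups held a median of 19.2% of their variance and differences between slides 31.7%, against 23.8% and 22.0% for all genes tested.

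The values that follow are given for rats 1 to 5 of each group in that order. Acta2 read 2.27, 2.72, 2.74, 2.76 and 2.71 in Control, 2.93, 2.60, 2.75, 2.43 and 1.92 in NMBA, 2.60, 2.64, 2.37, 1.42 and 2.11 with alpha, 3.0, 2.71, 1.39, 3.16 and 2.42 with delta, and 1.53, 1.77, 1.45, 2.22 and 2.72 with gamma-enriched tocopherol. Acta2 is the alpha actin of smooth muscle, and its groups overlapped, with delta rats 3 and 4 holding the lowest and the highest value of all. Actg2 read 3.99, 5.24, 4.90, 5.01 and 4.70 in Control, 5.03, 4.89, 5.09, 4.50 and 4.13 in NMBA, 4.85, 4.60, 4.33, 4.0 and 4.29 with alpha, 4.49, 4.60, 3.35, 4.78 and 4.10 with delta, and 3.71, 3.97, 3.81, 4.41 and 4.27 with gamma-enriched tocopherol. Actg2, the gamma actin of gut muscle, was at most 4.41 in gamma-enriched rats and at least 4.13 in NMBA rats, so that these groups overlapped through NMBA rat 5. Myh11 read 3.06, 3.44, 3.27, 3.39 and 3.38 in Control, 3.43, 3.32, 3.37, 3.30 and 2.17 in NMBA, 3.21, 3.37, 2.98, 2.64 and 2.91 with alpha, 3.18, 3.32, 2.51, 3.66 and 2.72 with delta, and 2.55, 2.81, 2.05, 3.04 and 3.34 with gamma-enriched tocopherol. NMBA rat 5 and gamma-enriched rat 3 read lowest for this myosin heavy chain, and the other NMBA rats lay within the range of the Control rats.

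Tagln read 3.65, 3.95, 3.79, 4.08 and 4.25 in Control, 3.94, 3.87, 4.17, 4.10 and 2.79 in NMBA, 4.16, 4.08, 3.56, 3.24 and 3.50 with alpha, 3.72, 4.07, 2.85, 4.08 and 3.58 with delta, and 3.09, 3.22, 2.48, 3.68 and 3.69 with gamma-enriched tocopherol. Tagln encodes transgelin, an actin-binding protein, and the same rats, NMBA 5 and gamma-enriched 3, lay with delta rat 3 at the low end. Cnn1 read 2.55, 2.53, 2.38, 2.72 and 2.78 in Control, 2.69, 2.41, 2.77, 2.62 and 1.23 in NMBA, 2.58, 2.64, 2.08, 1.64 and 2.40 with alpha, 2.58, 2.51, 1.40, 2.93 and 2.32 with delta, and 1.86, 2.29, 0.86, 2.38 and 2.86 with gamma-enriched tocopherol. Cnn1, the thin filament protein calponin, had its lowest values in the same 3 rats and its highest in delta rat 4. Des read 3.07, 3.29, 3.30, 3.79 and 3.75 in Control, 3.85, 3.61, 4.12, 3.92 and 2.85 in NMBA, 3.28, 3.63, 3.13, 2.51 and 3.91 with alpha, 3.81, 3.72, 2.50, 3.78 and 3.31 with delta, and 3.31, 3.14, 2.06, 3.35 and 3.18 with gamma-enriched tocopherol. Des, the intermediate filament desmin of both muscle types, was lowest in gamma-enriched rat 3 and highest in NMBA rat 3. Of the remaining smooth genes, Lmod1 and Myl9 were lowest in gamma-enriched rat 3, Synm and Mylk in NMBA rat 5, and Smtn and Myocd in delta rat 3.

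No smooth muscle gene differed between groups past the threshold in the 10 pairwise comparisons made with limma, at an adjusted p under 0.05 over all genes tested. The comparisons with NMBA share the NMBA rats, and those with Control share the Control rats. Between NMBA and Control, where 1.55% of all genes were called, 11 of 12 smooth genes had lower values in NMBA, with a median of −0.18 beside 0.05 over all genes. Without NMBA rat 5, whose array was the only one on slide 4, that median was 0.04. The differences ran from −0.37 for Myl9, the regulatory light chain, to 0.23 for Des, and the smallest adjusted p was 0.693. None of the 39 muscle genes reached even an unadjusted p under 0.05 in that comparison, as 1580 of 12343 genes did. Of the other smooth muscle genes of a wider list, 19 were measured. Among them Pln, the calcium pump regulator phospholamban, was higher with NMBA by 1.09 ± 0.27 (adjusted p = 0.0346), and was the only 1 called. Its groups did not overlap, as was seen in 494 of 12343 genes.

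With gamma-enriched tocopherol most smooth muscle genes had their lowest group mean, while Lmod1, Synm and Myocd were lowest with alpha-tocopherol. Against Control, where 0.632% of genes were called, all 12 measured smooth genes had lower values, with a median of −0.53 beside −0.06 over all genes, and 5 had an unadjusted p under 0.05, as did 2272 of 12343 genes. Markers of other cell types had lower values in the same comparison: all 10 measured fibroblast genes (median −0.78, 7 with an unadjusted p under 0.05), all 8 of nerve and glia (median −0.90), all 7 endothelial genes (median −0.47) and 5 of 6 pericyte genes (median −0.53), and their part in the smooth muscle values was not tested. In slide 2, the only slide that held both groups, the median smooth difference between the 5 gamma-enriched rats and Control rat 1 was −0.16. Actg2 differed by 0.04 there. Over all rats of both groups, Actg2 differed by −0.73 ± 0.26 (adjusted p = 0.159, 95% interval −1.27 to −0.20) and Myl9 by −0.90 ± 0.35 (adjusted p = 0.188). Against NMBA, where 8.95% of genes were called, 10 of 12 had lower values, with a median of −0.42 beside −0.10, and Actg2 differed by −0.70 ± 0.26 (adjusted p = 0.0922). That difference was −0.74 with slide as a random block (adjusted p = 0.0438), −0.08 with quantile normalization (adjusted p = 0.859) and 0.12 with slide as a fixed block (adjusted p = 0.998). The random block put the correlation within slides at −0.0311, so it made no allowance for likeness between arrays of a slide. Without Control rat 1, Actg2 differed from Control by −0.93 with an adjusted p of 0.0316. Of 25 fits that left out 1 rat, this was the only 1 in which Actg2 was called against Control. In that fit 697 genes were called in all, against 78 with every rat kept. In these bulk samples, fewer muscle cells and less RNA per muscle cell cannot be told apart.

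Alpha and delta rats gave smaller differences in the smooth genes. Alpha minus NMBA, with 3.82% of genes called, had lower values for all 12 measured smooth genes and a median of −0.20 beside −0.03, which became 0.34 with slide as a fixed block. Those values are at the probes used, where Synm stood at −0.00. Second probes of Synm (0.76) and Mylk (0.28) had higher values, and those of Actg2, Lmod1, Myh11 and Smtn lower ones. Delta minus NMBA, with 2.49% of genes called, had a median of −0.02 beside −0.05 (0.13 with quantile normalization), from −0.46 for Actg2 to 0.23 for Lmod1, an actin nucleator. Against Control, medians were −0.30 in alpha rats and −0.21 in delta rats, and turned to 0.31 and 0.36 with slide as a fixed block. Those fixed-block estimates rest on Control rat 1. In these comparisons 0.818% and 0.194% of genes were called. Between the tocopherol groups no smooth gene passed, with medians of 0.11 for delta minus alpha, −0.26 for gamma-enriched minus alpha and −0.33 for gamma-enriched minus delta, and 0.00%, 1.62% and 0.00% of all genes were called. For Acta2 the 95% intervals of these 3 differences were −0.31 to 0.92, −0.91 to 0.33 and −1.21 to 0.02, each unadjusted for the number of genes. The smooth medians with gamma-enriched tocopherol moved with the scaling: with quantile normalization they were −0.12 against NMBA and −0.39 against Control. They moved with the rats too. Over the fits that left out 1 rat they ran from −0.63 to −0.27 against NMBA and from −0.66 to −0.37 against Control. Against alpha rats they ran from −0.41 to −0.06, and against delta rats from −0.53 to −0.16. In each comparison the smallest difference came without gamma-enriched rat 3.

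**Figure D2:**
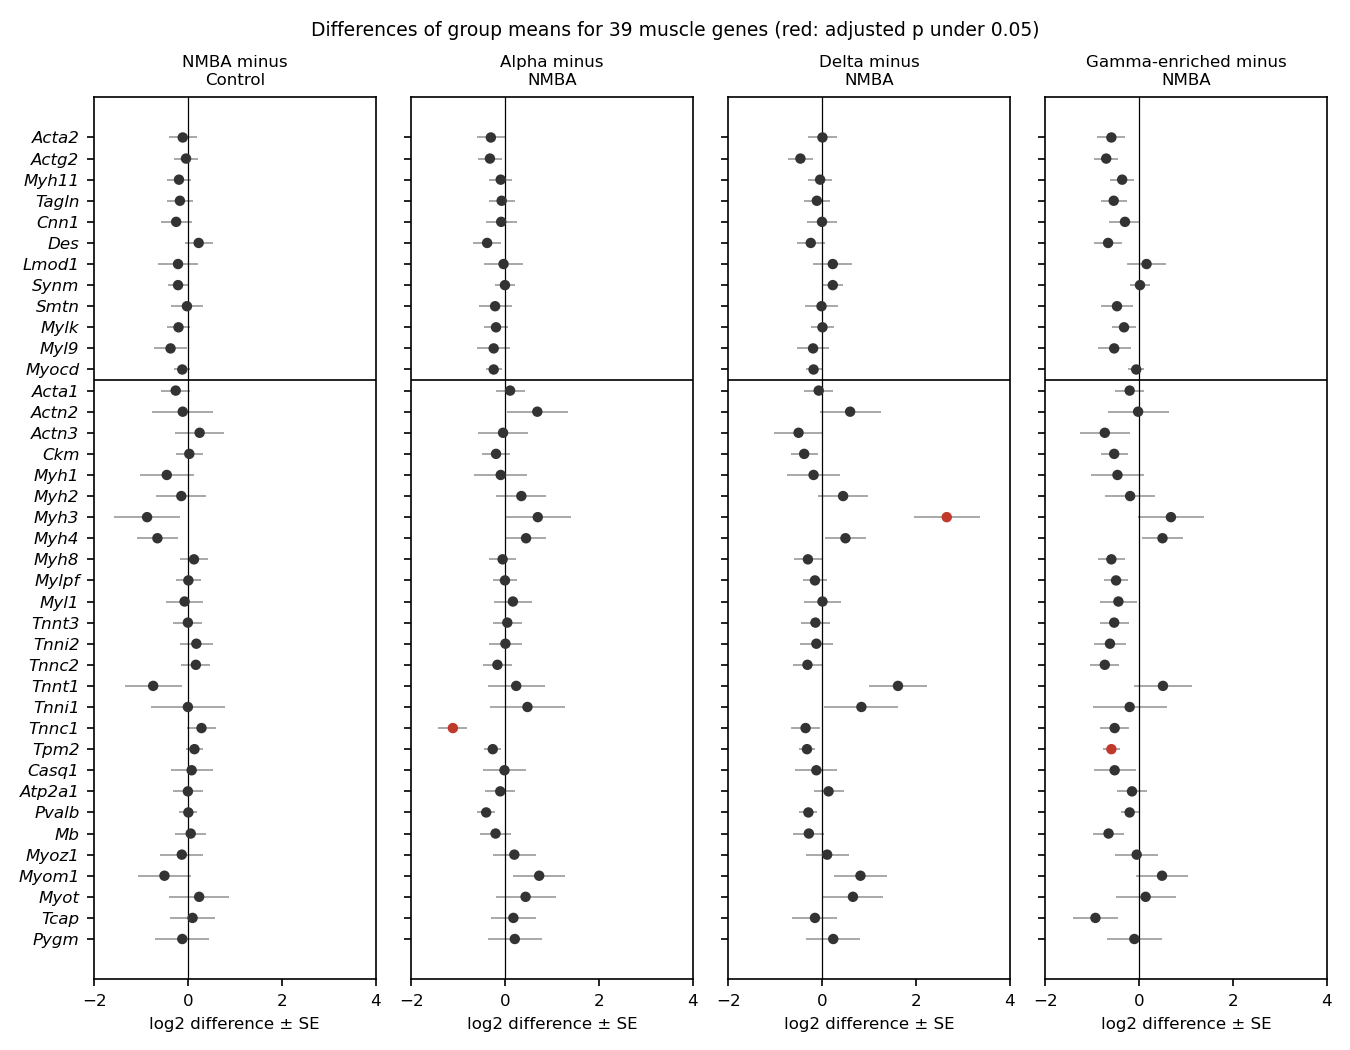
Log2 difference of group means ± SE (horizontal axis) for 39 muscle genes (vertical axis, 12 smooth above the line and 27 striated below) in 4 comparisons, 5 rats per group, with red points for an adjusted p under 0.05. Red points are Tnnc1 for alpha minus NMBA at −1.11, Myh3 for delta minus NMBA at 2.66 and Tpm2 for gamma-enriched minus NMBA at −0.59, and most gamma-enriched points lie left of 0.

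The striated muscle genes varied more between rats and less between groups than the smooth genes. Their SD over the 25 rats had a median of 0.69 log2 units, from 0.31 in Pvalb, a calcium buffer of fast fibres, to 1.41 in Myh3. Groups held a median of 11% of the variance, from 1.68% in Myoz1 to 41.4% in Myh3, and slides held 13.9%. None of the 39 listed muscle genes passed the limma F test over all 5 groups together, in which 7.0% of all genes passed. Of the 39, 4 had an unadjusted p under 0.05, and the smallest adjusted p was 0.102, for Myh3. Among the 19 measured smooth muscle genes of the wider list, 1 passed, Pln (adjusted p = 0.0495).

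Acta1 read 2.75, 4.18, 3.17, 4.39 and 4.16 in Control, 3.35, 3.28, 4.02, 3.69 and 3.0 in NMBA, 3.19, 3.63, 3.54, 3.15 and 4.39 with alpha, 3.55, 3.37, 3.01, 3.56 and 3.52 with delta, and 3.73, 3.50, 3.31, 3.56 and 2.25 with gamma-enriched tocopherol. Acta1 is the alpha actin of skeletal muscle, lowest in gamma-enriched rat 5 and highest in Control rat 4 and alpha rat 5, with all groups overlapping. Ckm read 3.16, 4.63, 3.87, 4.98 and 4.76 in Control, 4.28, 4.18, 4.71, 4.32 and 4.05 in NMBA, 4.08, 4.50, 3.92, 3.48 and 4.62 with alpha, 4.07, 4.19, 3.38, 3.94 and 4.07 with delta, and 4.13, 3.84, 3.91, 4.06 and 2.97 with gamma-enriched tocopherol. Ckm, the muscle creatine kinase, was lowest in gamma-enriched rat 5, followed by Control rat 1. Tnnt3 read 2.94, 4.19, 3.31, 4.41 and 4.27 in Control, 3.84, 3.64, 4.17, 3.85 and 3.65 in NMBA, 4.04, 4.03, 3.68, 3.13 and 4.51 with alpha, 3.96, 3.76, 3.13, 3.88 and 3.73 with delta, and 3.68, 3.48, 3.60, 3.63 and 2.08 with gamma-enriched tocopherol. In Tnnt3, the fast troponin T, the same 2 rats were lowest and alpha rat 5 was highest.

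Myh8 read 3.45, 5.03, 4.63, 5.16 and 4.87 in Control, 4.88, 4.84, 4.87, 4.58 and 4.64 in NMBA, 4.93, 4.92, 4.69, 3.86 and 5.17 with alpha, 4.63, 4.56, 3.80, 4.66 and 4.66 with delta, and 4.45, 4.20, 4.60, 4.29 and 3.34 with gamma-enriched tocopherol. Myh8, the perinatal myosin heavy chain, was above the 75th percentile in all 25 rats, and its groups overlapped. Mylpf read 3.41, 4.55, 4.04, 4.76 and 4.46 in Control, 4.35, 4.04, 4.40, 4.24 and 4.21 in NMBA, 4.33, 4.46, 3.94, 3.63 and 4.89 with alpha, 4.33, 4.28, 3.50, 4.22 and 4.18 with delta, and 4.13, 3.69, 4.09, 4.04 and 2.87 with gamma-enriched tocopherol. Mylpf, the fast regulatory light chain (named Myl11 in the RefSeq table), followed the same rats, with gamma-enriched rat 5 lowest and alpha rat 5 highest. Atp2a1 read 1.63, 2.49, 1.72, 2.81 and 2.65 in Control, 2.14, 2.11, 2.68, 2.52 and 1.84 in NMBA, 1.90, 2.02, 2.45, 1.74 and 2.64 with alpha, 2.59, 2.57, 1.84, 2.39 and 2.59 with delta, and 2.65, 2.34, 2.41, 2.53 and 0.61 with gamma-enriched tocopherol. For Atp2a1, the calcium pump of fast fibres, gamma-enriched rat 5 stood at 0.61, while the other 4 gamma-enriched rats read between 2.34 and 2.65.

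Between NMBA and Control, 15 of 27 striated genes had higher and 12 lower values, with a median of 0.00. The differences ran from −0.87 for Myh3 to 0.29 for Tnnc1, and 0 of 27 passed. Within slide 3, which held 4 rats of each group, the median striated difference was −0.21 and the median smooth difference −0.03. Against Control, alpha and delta rats had striated medians of 0.05 and −0.06, which became 1.46 and 1.17 with slide as a fixed block. The fixed-block estimates rest on Control rat 1, itself low in striated genes. In either comparison 0 of 27 genes passed, with 1 unadjusted p under 0.05 each, beside 1687 and 1331 of 12343 genes. Pvalb had no overlap between alpha and Control rats (−0.39), as did 3.73% of all genes.

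Tnnc1, the troponin C of slow and cardiac muscle, was lower with alpha-tocopherol than with NMBA alone. Tnnc1 read 0.68, 1.31, 1.30, 1.67 and 1.93 in Control, 1.69, 1.80, 1.58, 1.68 and 1.59 in NMBA, −0.54, 1.11, 0.73, 0.28 and 1.23 with alpha, 1.30, 1.16, 0.60, 2.19 and 1.31 with delta, and 1.17, 0.87, 1.64, 1.65 and 0.41 with gamma-enriched tocopherol. Every alpha rat read below every NMBA rat, and alpha rat 1 lay lowest of all. The difference was −1.11 ± 0.31 (adjusted p = 0.0491), a 2.15-fold lower signal, and Tnnc1 alone of the 39 muscle genes passed in this comparison, where 3.82% of all genes did, and 2.52% did so downward. No overlap between the groups was seen in 1 muscle gene, this one, and in 4.70% of all genes. The striated median was 0.05 in the same comparison, and the other slow troponins Tnnt1 and Tnni1 stood at 0.24 ± 0.61 and 0.48 ± 0.79. The call was lost in 17 of 25 fits that left out 1 rat, with differences from −1.15 to −0.83 and adjusted p from 0.0507 to 0.125; the rats were Control 2, 3 and 4, NMBA 1, 2, 3, 4 and 5, alpha 1, 3 and 4, delta 1, 2 and 5, and gamma-enriched 1, 2 and 4. With slide as a fixed block, an estimate that rests on Control rat 1, the difference turned to 0.48 (adjusted p = 0.795).

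Tpm2, the beta chain of tropomyosin, which is made in smooth and striated muscle alike, was lower with gamma-enriched tocopherol than with NMBA alone. Tpm2 read 3.57, 4.06, 3.97, 4.28 and 4.09 in Control, 4.47, 4.13, 4.23, 3.89 and 3.95 in NMBA, 4.26, 4.07, 3.82, 3.39 and 3.83 with alpha, 4.11, 3.92, 3.18, 4.11 and 3.74 with delta, and 3.41, 3.31, 3.70, 3.69 and 3.61 with gamma-enriched tocopherol. Each gamma-enriched rat read below each NMBA rat, with 3.70 the highest of the former and 3.89 the lowest of the latter. The difference was −0.59 ± 0.18 (adjusted p = 0.0436), a 1.51-fold lower signal, and 1 of 39 muscle genes passed where 8.95% of all genes did and 7.36% did so downward. Of the striated genes 22 of 27 had lower values, with a median of −0.44 beside −0.10 over all genes, and of −0.11 with quantile normalization. The troponin C of fast fibres Tnnc2 (−0.73 ± 0.31, adjusted p = 0.14) and myoglobin, Mb (−0.65 ± 0.33, adjusted p = 0.213), also had groups without overlap, which makes 3 of 39 muscle genes beside 7.05% of all genes. The Tpm2 call was lost in 11 of 25 fits that left out 1 rat, with differences from −0.61 to −0.51 and adjusted p from 0.0503 to 0.131; the rats were Control 2, 3 and 5, NMBA 1, 2 and 3, alpha 3, delta 5, and gamma-enriched 1, 2 and 5. With quantile normalization Tpm2 differed by −0.14 (adjusted p = 0.502), and with slide as a fixed block by −0.11 (adjusted p = 0.998).

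Against Control, 26 of 27 striated genes had lower values with gamma-enriched tocopherol. Of these genes 0 passed, where 0.632% of all genes did, and 1 had an unadjusted p under 0.05, beside 2272 of 12343 genes. Between the tocopherol groups, 0 striated genes passed, with 3, 1 and 1 at an unadjusted p under 0.05, beside 571, 1806 and 503 of 12343 genes, and medians of −0.09 for delta minus alpha, −0.37 for gamma-enriched minus alpha and −0.34 for gamma-enriched minus delta. The striated values with gamma-enriched tocopherol leaned on few rats. With gamma-enriched rat 5 and Control rat 1 both left out, the striated median moved from −0.44 to −0.01 against NMBA and from −0.44 to −0.30 against Control. Without gamma-enriched rat 5 alone it was −0.01 against NMBA, −0.05 against Control, −0.07 against alpha rats and −0.01 against delta rats, and without Control rat 1 alone it was −0.68 against Control. Within slide 2 the striated median was 0.52 for the 5 gamma-enriched rats against Control rat 1, itself low in striated genes. With both of these rats left out, the smooth median against NMBA became −0.56, and Tpm2 differed from NMBA by −0.61 (adjusted p = 0.0518). Markers of squamous epithelium moved too: 7 of 18 were called lower with gamma-enriched tocopherol than with NMBA, where 7.36% of all genes were. Among them were the keratins Krt4 (−0.81 ± 0.15, adjusted p = 0.00383), Krt13 and Krt14. The part of these markers in the muscle values was not tested.

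Myh3 had the largest share of its variance between groups of the 39 muscle genes, 41.4%, and it was placed in the list with its delta-tocopherol difference already known, so its values are a description and no independent support. Myh3 read −4.49, −5.31, −5.86, −3.44 and −2.83 in Control, −4.41, −5.86, −5.08, −4.98 and −5.94 in NMBA, −4.96, −4.79, −5.17, −5.22 and −2.60 with alpha, −3.35, −2.41, −4.02, −0.07 and −3.10 with delta, and −3.52, −4.71, −4.20, −3.85 and −6.59 with gamma-enriched tocopherol. Every delta rat read above every NMBA rat, and delta rat 4, at −0.07, lay highest of the 25. Group means ± SD (n = 5) ran from −5.25 ± 0.64 in NMBA through −4.57 ± 1.21 with gamma-enriched tocopherol, −4.55 ± 1.1 with alpha-tocopherol and −4.38 ± 1.26 in Control to −2.59 ± 1.52 with delta-tocopherol. The means of gamma-enriched, alpha and Control rats lay closer to each other than their SDs, and the NMBA mean lay below them by more than its own SD but less than theirs. Among the rats of other groups, alpha rat 5 (−2.60), Control rats 4 and 5 (−3.44 and −2.83) and gamma-enriched rats 1 and 4 (−3.52 and −3.85) lay in the range of the delta rats.

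Against NMBA, Myh3 was higher in delta rats by 2.66 ± 0.70 log2 units, a 6.32-fold difference (95% interval 1.21 to 4.11 log2 units, adjusted p = 0.0468 with limma over 12343 genes). It was the only one of the 39 muscle genes called in that comparison, in which 2.49% of all genes were called and 0.470% were called higher. Among the 39, it was also alone in having no overlap of the groups there, beside 5.70% of all genes. The striated median was −0.12, or 0.21 with quantile normalization, and Tnnt1, the slow troponin T, stood at 1.62 ± 0.61 (adjusted p = 0.136). A second Tnnt1 probe, with r = 0.94 to the probe used, stood at 2.14 ± 0.62 (adjusted p = 0.0575 with limma over single probes). Against Control the Myh3 difference was 1.79 (0.34 to 3.24, adjusted p = 0.339). Between tocopherols it was 1.96 for delta minus alpha (0.51 to 3.40, adjusted p = 0.983), −1.98 for gamma-enriched minus delta (−3.43 to −0.53, adjusted p = 0.949) and −0.03 for gamma-enriched minus alpha (−1.47 to 1.42). These intervals hold for 1 gene at a time, and none of the 3 differences passed over all genes.

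A second Myh3 probe, detected on 19 arrays, followed the probe used with r = 0.97 over the 25 rats. Tested by itself it differed by 3.39 between delta and NMBA rats (adjusted p = 0.0462). With normexp background correction the difference at the probe used was 2.13 (adjusted p = 0.0451). Myosin heavy chain genes are similar in sequence, and whether the probes tell them apart was not tested.

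**Figure D3:**
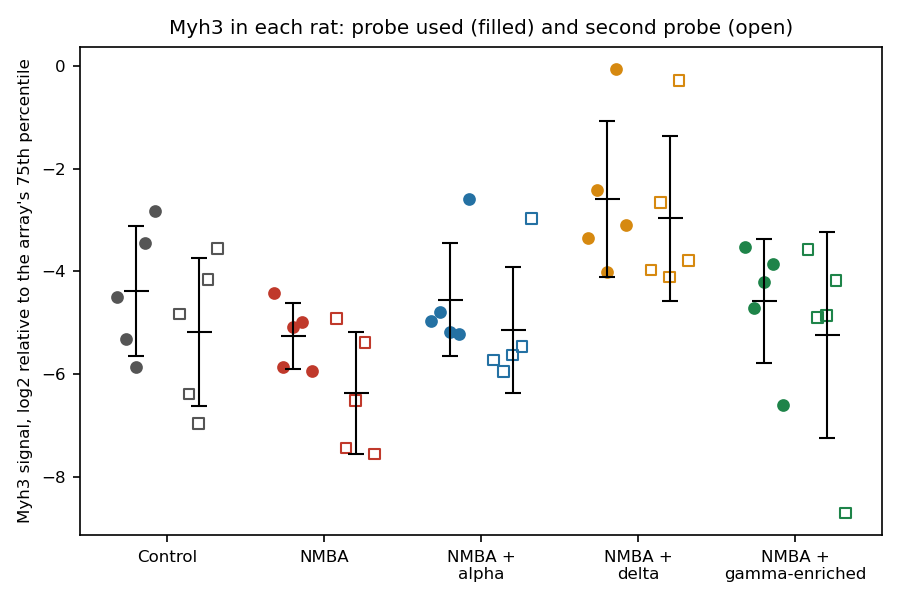
Myh3 signal of each rat (vertical axis, log2 relative to the array's 75th percentile) by group, with filled circles for the probe used and open squares for the second probe, and black bars for the mean ± SD of 5 rats. At the probe used, the delta rats sit between −4.02 and −0.07, all above the NMBA rats, which end at −4.41, and alpha rat 5 stands apart from its group at −2.60.

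The delta difference in Myh3 was sensitive to the rats used. Without delta rat 4 it was 2.03 (adjusted p = 0.0951), and without delta rat 3 it was 3.02 (adjusted p = 0.0486). The call was lost in 14 of 25 fits that left out 1 rat, with differences from 2.03 to 2.87 and adjusted p from 0.0507 to 0.104; the rats were Control 4, NMBA 1, 2, 3 and 5, alpha 1, 2 and 3, delta 2, 4 and 5, and gamma-enriched 1, 2 and 4. With slide as a fixed block the difference was 3.63 (adjusted p = 0.663), an estimate that reaches the NMBA rats only through Control rat 1. Within slide 1, 3 delta rats averaged 1.29 above 5 alpha rats, and within slide 2, 5 gamma-enriched rats averaged −2.99 relative to 2 delta rats.

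The genes whose signal followed Myh3 most closely over the 25 rats were Tnnt1 (r = 0.86), Myh7, the slow and cardiac myosin heavy chain (r = 0.86), Slc5a7, the choline transporter of cholinergic nerve endings (r = 0.81), Myh6, the cardiac alpha myosin heavy chain (r = 0.77), and Lgi2 (r = 0.77). These are ranks by Pearson's r among 12343 genes and carry no test. Slc5a7 was detected on 5 arrays only. Myh6 and Myh7 are close in sequence, and whether their probes share signal was not tested. Among the muscle genes, Myh2 (r = 0.75) and Tnni1, the slow troponin I (r = 0.72), came next after Tnnt1, and r was lower for Ckm (0.27), Pvalb (−0.01) and Actg2 (−0.03). On deviations from the group means, r with Myh3 was 0.57 for Ckm, 0.20 for Pvalb and 0.19 for Actg2. Tnnt1 read −0.20, −0.85, 0.11, 1.56 and 1.64 in Control, 1.06, −0.26, −0.61, −0.86 and −0.76 in NMBA, −0.21, −0.31, 0.00, −1.66 and 1.99 with alpha, 1.72, 1.71, −0.42, 2.70 and 0.99 with delta, and 0.70, −0.09, 0.69, 0.72 and −0.88 with gamma-enriched tocopherol. Delta rats 1, 2 and 4 and alpha rat 5 held the highest Tnnt1 values, and delta rat 3 lay near the NMBA rats. Myh7 read −5.03, −4.88, −4.82, −3.53 and −2.76 in Control, −4.30, −4.74, −4.47, −4.36 and −5.50 in NMBA, −5.73, −5.28, −4.85, −5.38 and −3.60 with alpha, −2.71, −2.03, −4.92, −1.38 and −3.43 with delta, and −3.87, −3.87, −3.78, −3.12 and −5.04 with gamma-enriched tocopherol. Myh7 was again highest in delta rat 4, while delta rat 3 lay within the range of the NMBA rats. These genes were picked for their likeness to Myh3 in the same rats, so their delta values repeat that choice and are a description. Delta minus NMBA was 1.78 ± 0.55 for Myh7 (adjusted p = 0.0722), 1.47 ± 0.61 for Myh6 (adjusted p = 0.175), and 1.76 ± 0.48 for Lgi2 (adjusted p = 0.0491).

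**Figure D4:**
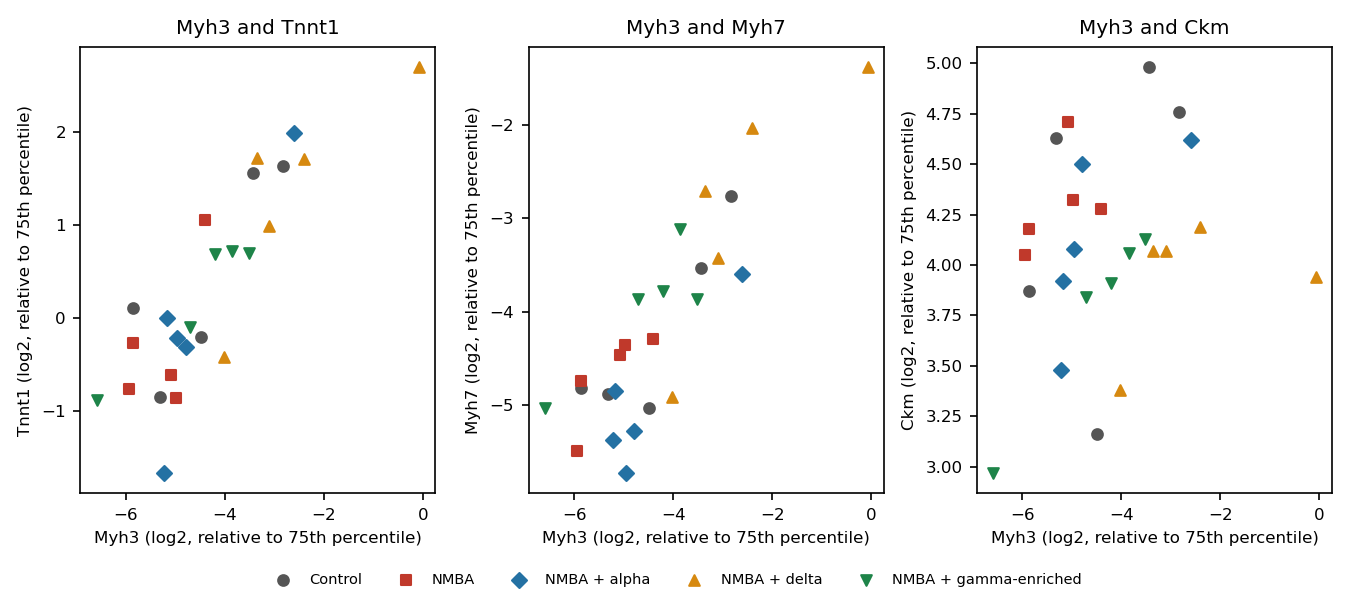
Myh3 (horizontal axes) against Tnnt1, Myh7 and Ckm (vertical axes), all in log2 relative to the array's 75th percentile, 1 point per rat with colour and shape for the group. Tnnt1 and Myh7 rise with Myh3 (r = 0.86 each) up to delta rat 4 at the upper right, and Ckm follows less closely (r = 0.27, or 0.57 on deviations from the group means).

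No gene of the wider muscle lists passed in the same comparison. Of 43 measured further striated genes, 0 passed between delta and NMBA rats, with a median of 0.36 beside −0.05 over all genes, and 3 had an unadjusted p under 0.05, beside 2481 of 12343 genes. Of 16 measured genes for myogenic regulators and immature muscle, 0 passed and 0 had an unadjusted p under 0.05, with a median of 0.25; Myod1 stood at 0.12 ± 0.70 and Myog at 0.28 ± 0.47. Of 19 further smooth muscle genes 0 passed there, with a median of 0.10, and 4 had an unadjusted p under 0.05. In alpha and gamma-enriched rats against NMBA, 1 of these genes passed: Ppp1r12b, a subunit of myosin phosphatase, fell with alpha-tocopherol by 1.0 ± 0.26 on the log2 scale (adjusted p = 0.0343).

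Smooth and striated genes each moved together from rat to rat, and less with each other. Over the 25 rats, the median Pearson's r was 0.77 over 66 pairs of smooth genes, 0.71 over 351 pairs of striated genes and 0.24 over 324 mixed pairs. Pairs of genes on 1 array share its scaling and its RNA. Of 8 pairs set out for a test, Acta2 with Actg2 (r = 0.84, rho = 0.81), Acta1 with Ckm (r = 0.90, rho = 0.81) and Myh11 with Des (r = 0.78, rho = 0.62) passed, with permutation p adjusted over the 8 pairs of 4e-05, 4e-05 and 5.33e-05 for r and 4e-05, 4e-05 and 0.0032 for rho. The smallest p the 100000 permutations allow is 1e-05, reached by the first 2 of these pairs. Without the 2 rats farthest from the median of the gene named first, r was 0.80, 0.87 and 0.67. Within slides 1, 2 and 3, of 8 rats each, it was 0.85, 0.89 and 0.69 for the actins, 0.81, 0.97 and 0.96 for Acta1 with Ckm, and 0.79, 0.80 and 0.13 for Myh11 with Des, which thus did not hold within slide 3.

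Across the muscle types, Myh11 with Acta1 had r = 0.25 and rho = 0.38 (adjusted permutation p = 0.27 and 0.101), 0.16 without the 2 farthest rats, and 0.25, −0.30 and 0.56 within the slides. Myh3 with Acta1 had r = 0.43 and rho = 0.45 (adjusted permutation p = 0.0638 and 0.0472), and 0.48, 0.66 and 0.64 within the slides. Myh3 with Ckm, Myh8 and Myh11 had r of 0.27, 0.25 and 0.15 (adjusted permutation p = 0.27, 0.27 and 0.464), with rho of 0.27, 0.10 and 0.05. Within slides 1, 2 and 3, r was 0.42, 0.61 and 0.72 with Ckm, 0.24, 0.71 and 0.46 with Myh8, and 0.19, 0.27 and 0.47 with Myh11. On deviations from the group means it was 0.64 with Acta1, 0.57 with Ckm, 0.49 with Myh8 and 0.20 with Myh11. Without delta rat 4 and gamma-enriched rat 5, the 2 rats farthest from the median of Myh3, its r was 0.41 with Acta1, 0.24 with Ckm, 0.08 with Myh8 and 0.02 with Myh11.

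**Figure D5:**
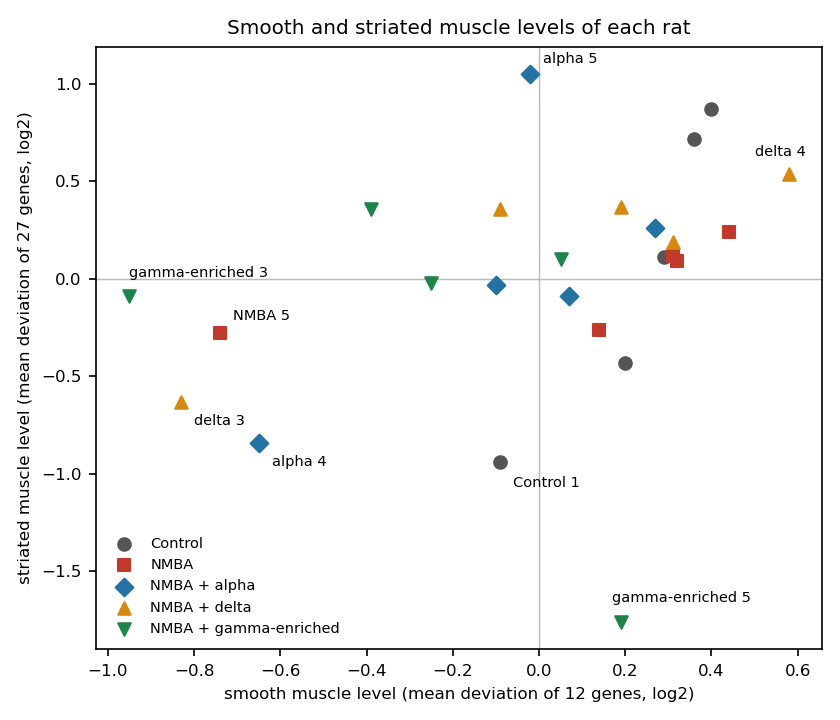
Smooth muscle level (horizontal axis) against striated muscle level (vertical axis) of each of 25 rats, each level being the mean over 12 or 27 genes of the log2 deviation from the gene's mean over all rats. Gamma-enriched rat 5 stands lowest in striated level at −1.76 with a smooth level of 0.19, and gamma-enriched rat 3 stands lowest in smooth level at −0.95 with a striated level of −0.09.

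A level per rat was taken as the mean over the smooth or the striated genes of the deviation from each gene's mean over 25 rats. The smooth level ran from −0.95 in gamma-enriched rat 3, which was lowest in 6 of 12 smooth genes, to 0.58 in delta rat 4, which was highest in 6. The striated level ran from −1.76 in gamma-enriched rat 5, lowest in 20 of 26 striated genes other than Myh3, to 1.05 in alpha rat 5, highest in 16 of them. By group, the smooth level had a mean ± SD (n = 5) of 0.23 ± 0.20 in Control, 0.09 ± 0.48 in NMBA, −0.09 ± 0.34 with alpha, 0.03 ± 0.54 with delta and −0.27 ± 0.44 with gamma-enriched tocopherol. The striated level was 0.07 ± 0.76, −0.02 ± 0.24, 0.07 ± 0.68, 0.17 ± 0.46 and −0.28 ± 0.84 in the same order. The ranges of all 5 groups overlapped in both levels.

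Markers of other cells under the epithelium were low in 2 of the 3 rats with the lowest smooth level. In gamma-enriched rat 3 the mean deviation was −1.57 over 10 fibroblast genes, −1.43 over 7 endothelial genes and −1.53 over 6 pericyte genes, beside 0.32 over 18 squamous genes. In NMBA rat 5, with a smooth level of −0.74, these were −1.04, −0.59, −1.23 and 0.32. In delta rat 3, whose smooth level of −0.83 lay between those of the other two, they were −0.13, −0.15, −0.23 and −0.24. The fibroblast level ran from 0.29 to 0.63 in Control, −1.04 to 0.21 in NMBA, −0.54 to 0.48 with alpha, −0.29 to 0.20 with delta and −1.57 to 0.21 with gamma-enriched tocopherol, and all 10 fibroblast markers were detected on 25 arrays. In gamma-enriched rat 5, lowest in striated genes, the fibroblast, endothelial and pericyte levels were 0.10, 0.23 and 0.29. The part of these cells in the muscle values was not tested.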

How the data were processed

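The 25 arrays were Agilent scanner output of 1 colour. Per the file headers, the processed signal intensity was background-subtracted and detrended within each array by Agilent Feature Extraction 11.5.1.1, whereas the submitters' processing notes name version 10.7. The authors also deposited a table of log2 values for 30507 probes, centred near the 75th percentile of each array, which followed the scanner values with r = 1 on each array and was used as an alternative.

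Here, log2 intensity was averaged over spots of a probe without outlier spots, and the array's 75th percentile was subtracted. A probe was detected where at least a fraction of 0.5 of its spots were well above background. Of 30367 probes, 18355 matched 1 symbol through a RefSeq accession and 12012 none. The detected probe with the highest mean stood for its gene, and genes detected on at least 5 arrays were tested. Differences are given ± SE from limma 3.58.1 (R 4.3.3), fitted over all 25 arrays with 5 group means, 10 contrasts, a test over all groups, and Benjamini-Hochberg adjustment over 12343 genes in each contrast. Intervals are 95% and unadjusted. Alternatives changed background correction, scaling, filter, probe choice, slide and rats. Normexp was run on median spot signals, where mean signals had been planned. The fit was tested on simulated data. Pairs of genes were tested with 100000 two-sided permutations (numpy 2.4.6, scipy 1.17.1). The limma p-values set differences of group means against the spread between rats, and the permutation p-values set r or rho against values shuffled between rats. The 25 arrays limit the precision.

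By the naming rule, any listed gene may be named, 12 defining muscle genes, Myh3 and each called gene are given for every rat, and other genes are called genes of the wider lists, cell type markers and the 5 genes most like Myh3. Values of Tnnt1 and Myh7 by rat, and other genes named outside that rule, were chosen after their values were seen. The members and lists were chosen with earlier results of these data known. Array annotation used an older rat build, so RefSeq served for names and promoter sequences only.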

Additional observations from a re-analysis of the deposited data

Results flagged for a closer look

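Values of 15 muscle genes were examined in 75 groups of 5 rats for a rat far from the rest of its group, by Dixon's ratio of gap to range with a critical value of 0.71. The ratio was passed 14 times, and chance passes it in about 1 in 20 independent groups. The 15 genes were read in the same rats and many moved together, so the 75 groups are not independent. The count of 14 therefore cannot be set against that rate, and several flags repeat the same rat. Values are log2 relative to the array's 75th percentile, each with the nearest other rat of its group.

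In smooth genes, NMBA rat 5 lay low for Myh11 (2.17, nearest 3.30), Tagln (2.79, nearest 3.87) and Cnn1 (1.23, nearest 2.41). Control rat 1 lay low for Acta2 (2.27, nearest 2.71), and gamma-enriched rat 3 lay low for Des (2.06, nearest 3.14).

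In striated genes, gamma-enriched rat 5 lay low for Acta1 (2.25, nearest 3.31), Ckm (2.97, nearest 3.84), Tnnt3 (2.08, nearest 3.48) and Atp2a1 (0.61, nearest 2.34). Delta rat 3 lay low for Myh8 (3.80, nearest 4.56), Mylpf (3.50, nearest 4.18), Tnnt3 (3.13, nearest 3.73) and Atp2a1 (1.84, nearest 2.39). Alpha rat 5 lay high for Myh3 (−2.60, nearest −4.79).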

How the results depend on the processing

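No listed muscle gene passed the test over all groups under any alternative run. Between alpha and NMBA rats, 0 muscle genes passed with quantile normalization, slide as a fixed block, the replicate block, or only the 2 groups compared, and Tnnc1 turned to 0.48 with the fixed slide block. Between delta and NMBA rats, 0 passed with detection on all 25 arrays (which drops Myh3), the fixed slide block, the replicate block or only the 2 groups compared. Myh3 was then 3.63 (adjusted p = 0.663), 2.66 (0.0610) and 2.66 (0.0574) under the last 3. Between gamma-enriched and NMBA rats, 0 passed with quantile normalization, the fixed slide block, the replicate block, or without Control rat 1 and gamma-enriched rat 5, a setting chosen after seeing the data, and 2 passed with slide as a random block. Against Control, 1 passed in gamma-enriched rats without those 2 rats. The cause of these changes was not tested.

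With each rat left out in turn, muscle genes called ranged from 0 to 1 for alpha, delta and gamma-enriched minus NMBA and gamma-enriched minus Control, and from 0 to 0 in the other comparisons, and the Myh3 difference between delta and NMBA ranged from 2.03 to 3.02. Replicate numbers did not pair rats: over 50 pairs of groups, same-numbered rats correlated in their deviations with r from −0.58 to 0.53, 12 of them over 0.1.

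With slide as a fixed block, 1 gene in all was called in each comparison of a tocopherol with NMBA, against 3.82%, 2.49% and 8.95% of 12343 genes for alpha, delta and gamma-enriched rats. With slide as a random block the counts were 800, 742 and 1805, with no filter on detection 2141, 961 and 3321, and with the replicate block 310, 161 and 787. The random slide block used a correlation within slides of −0.0311, so its higher counts make no allowance for likeness between arrays of a slide. The fixed slide block moved the striated median to 1.62, 1.33 and 0.81 in these comparisons. Each of those estimates rests on Control rat 1, which was low in striated genes. Detection limits Myh3 most, whose second probe was detected on 19 arrays.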

Other observations

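Slow and fast fibre genes differed in some rats in different measure. These groups of genes were chosen after their values were seen, and the differences were not tested. The slow genes were Tnnt1, Tnni1, Tnnc1 and Myh7, and the fast genes were Tnnt3, Tnni2, Tnnc2, Myh1, Myh2, Myh4, Actn3, Atp2a1 and Casq1. In delta rat 4, the rat with the highest Myh3, the median deviation from the mean of 25 rats was 2.23 over the 4 slow genes, each of which was highest there, and 0.18 over the 9 fast genes. Of the fast genes, Myh2 was highest there too, at 3.12. In gamma-enriched rat 5, with the lowest Myh3, the median deviation was −1.81 over the fast genes, each lowest there, and −1.06 over the slow genes, of which 0 were lowest there. The slow gene Tnni1 came near, at −2.29 beside its lowest value of −2.32 in Control rat 1. Pvalb, a fast fibre gene outside that choice, read 1.69 in gamma-enriched rat 5, above its lowest value of 1.29. In alpha rat 5 the median deviation was 1.07 over the fast and 1.09 over the slow genes. In alpha rat 1 it was 0.17 over the fast and −1.07 over the slow genes.

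The probes of Casq1, the calcium-binding protein of the sarcoplasmic reticulum, disagreed: between gamma-enriched and NMBA rats the probe used differed by −0.52 and the second probe by 0.55, with r = 0.43 between them over the 25 rats. Probes of Smtn, Lmod1 and Myh2 also differed in sign in that comparison. The probe used and the second probe stood at −0.47 and 0.14 for Smtn, 0.16 and −0.56 for Lmod1, and −0.19 and 0.33 for Myh2.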
